A study of Mus musculus with 24 samples.

Results

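The Hist1 cluster on mouse chromosome 13 carries Hist1h1a, Hist1h1b, Hist1h1c, Hist1h1d and Hist1h1e, the 5 linker histone genes described here through the Foxa and Flag peaks around them. Members, selected on where peaks were called, were all peaks that overlapped chromosome 13 from 21780000 to 22150000 or from 23500000 to 23900000 (mm9), called the first and the second window. The rule names the region 23830434 to 23832145 as the one at Hist1h1c, which was known from earlier results as a site called in all 3 Foxa3 lists and in no Foxa1 or Foxa2 list. The peak counts of Foxa3 against Foxa1 and Foxa2 thus chose the members and are given as a description, with no test. The rule took in 128 of the 26332 peaks of the 14 deposited lists.

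The lists come from chromatin immunoprecipitation with sequencing in C57BL/6 cells. Induced hepatocyte-like (iHep) cells were derived from embryonic fibroblasts of 13.5 days post coitum, and every iHep line carried introduced Hnf4a together with Foxa1 (line 4a1), Foxa2 (line 4a2) or Foxa3 (line 4a3). Each line has 3 Foxa libraries, 2 with EGS in the title and 1 without (non-EGS), and lines 4a2 and 4a3 have 1 Flag library each, with EGS in the title. Hepatocytes from livers of 10-week-old mice, with no factor introduced, gave 1 library per Foxa antibody, all with EGS in the title. The labels do not spell out EGS, do not say which protein carries Flag, name no promoter for the introduced genes and do not say whether a line is a clone. Line, introduced factor and antibody change together, so they cannot be told apart. The 14 lists differ in length from 21 to 11408 peaks, and the depth of the libraries is unknown, because these files hold only peaks and scores. Peak lists give no expression, so the labelled cell types could not be checked against marker genes. No input list was used here, so signal without an antibody at these sites was not tested.

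Linker histones bind the DNA that enters and leaves the nucleosome and help to fold chromatin. Genes of this cluster lack introns, are transcribed mainly while DNA is replicated, and give messages that end in a stem-loop instead of a poly(A) tail. Their core promoters typically carry a TATA element and a CCAAT box, and many linker histone promoters carry a further element, the H1 box AAACACA. Foxa proteins are forkhead factors that can bind DNA in closed chromatin and that take part in liver development.

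The promoters of the 5 members are shown because a region called in all 3 Foxa3 lists lies at Hist1h1c and because their shared letters can be read off directly. Each line gives the 150 bases before the annotated start, 5′ to 3′ on the gene's strand, from RefSeq on GRCm38.p6. That build is not the one of the peaks. No conversion between the builds was made, so these positions were not set against peak positions. Capitals mark, on either strand, the H1 box AAACACA, the box with the letters CCAAT and the TATA element as TATAAA.
Hist1h1a promoter (chr13:23763518-23763667, strand +): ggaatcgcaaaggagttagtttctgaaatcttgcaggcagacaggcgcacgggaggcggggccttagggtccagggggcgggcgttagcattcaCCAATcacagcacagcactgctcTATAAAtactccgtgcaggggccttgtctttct
Hist1h1b promoter (chr13:21780626-21780775, strand -): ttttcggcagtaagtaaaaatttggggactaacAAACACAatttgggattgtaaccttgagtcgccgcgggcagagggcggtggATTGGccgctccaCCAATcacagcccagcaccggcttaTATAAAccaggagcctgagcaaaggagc
Hist1h1c promoter (chr13:23738657-23738806, strand +): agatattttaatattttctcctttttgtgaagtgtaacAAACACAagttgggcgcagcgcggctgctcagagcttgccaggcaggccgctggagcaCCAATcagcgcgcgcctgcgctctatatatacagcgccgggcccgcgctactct
Hist1h1d promoter (chr13:23554882-23555031, strand +): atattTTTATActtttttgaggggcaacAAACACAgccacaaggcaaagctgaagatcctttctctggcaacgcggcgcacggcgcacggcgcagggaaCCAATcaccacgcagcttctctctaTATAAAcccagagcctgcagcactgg
Hist1h1e promoter (chr13:23622559-23622708, strand -): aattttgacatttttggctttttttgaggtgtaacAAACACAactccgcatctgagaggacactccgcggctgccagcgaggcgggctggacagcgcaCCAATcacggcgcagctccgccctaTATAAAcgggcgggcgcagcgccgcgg

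All 5 members were matched to 1 promoter each. On both strands of the 250 bases before the start, AAACACA was found in Hist1h1b, Hist1h1c, Hist1h1d and Hist1h1e, and not in Hist1h1a. Of 46 core histone promoters of the cluster 4 held these letters in the same window, as did 6.25% of all 32851 promoters in the table. Of 5 linker histone genes that are not members (H1f0, H1f6, H1f7, H1f8 and H1f10), H1f6 held it. In the 4 genes the element began 117, 112, 122 and 115 bases before the start, in the order just given. Each copy stood inside AACAAACACA, the longest run around the box that the 4 genes share, which was searched after the sequences had been read. It was in 0 of the 46 core histone promoters and in 0.216% of all promoters. CCAAT was found in all 5 members, in H1f6 and H1f8, in 38 of the 46 core histone promoters and in 33.8% of all promoters. TATAAA was found in 4 members, all but Hist1h1c, in 0 of those 5 other linker histone genes, in 22 of the 46 and in 12.4% of all promoters. The printed Hist1h1c promoter holds tatatata instead, letters that were not searched. In Hist1h1d the matches stood 26 and 145 bases before the start, so not every marked match lies close to it. The forkhead letters TGTTTAC had no match in these windows of the 5 members, against 3.17% of all promoters. The variant TGTTTGC had none either, against 4.30% of all promoters. The variant TATTTAC also had none in the members, against 2.73% of all promoters. No match says only that these letters are not in this window.

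Foxa3 peaks of iHep cells were called in groups in both windows, and peaks of the other antibodies were few. The list of Foxa3 EGS replicate 1 held 54 of its 1246 peaks there, or 4.33% (exact Clopper-Pearson 95% interval 3.27 to 5.62). The Foxa3 non-EGS list also held 54, of 4317 peaks, or 1.25% (0.941 to 1.63). The short list of Foxa3 EGS replicate 3 held 7 of 46 peaks, or 15.2% (6.34 to 28.9). These shares differed widely among the 3 libraries (mean 6.93% ± 7.34, SD, n = 3), while all 3 lay above every other list.

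Among Foxa1 lists of line 4a1, EGS replicate 1 had 0 of 940 peaks in the windows, where a count of 0 allows a share of up to 0.319% if 3 counts are taken as the limit, and 0.392% by the exact interval. Limits for other lists with 0 peaks are given by the rule of 3 counts, and the exact limits in the plot of shares by list are higher. EGS replicate 2 of that line had 1 of 542 (0.185%), and the non-EGS list 2 of 3431 (0.0583%). The Foxa2 lists of line 4a2 had 1 of 957 (0.104%), 1 of 1040 (0.0962%) and, without EGS, 4 of 11408 (0.0351%). The longest list of the series thus held 4 peaks where Foxa3 lists of a fraction of its length held 54. Over the 6 Foxa1 and Foxa2 lists the mean share was 0.0798% ± 0.0643 (SD, n = 6), which puts the Foxa3 mean 6.85 percentage points higher. Without Foxa3 EGS replicate 3, the list of 46 peaks, the difference was 2.71 points. Intervals cover counting error only and are too narrow for peaks that lie close together.

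**Figure D1:**
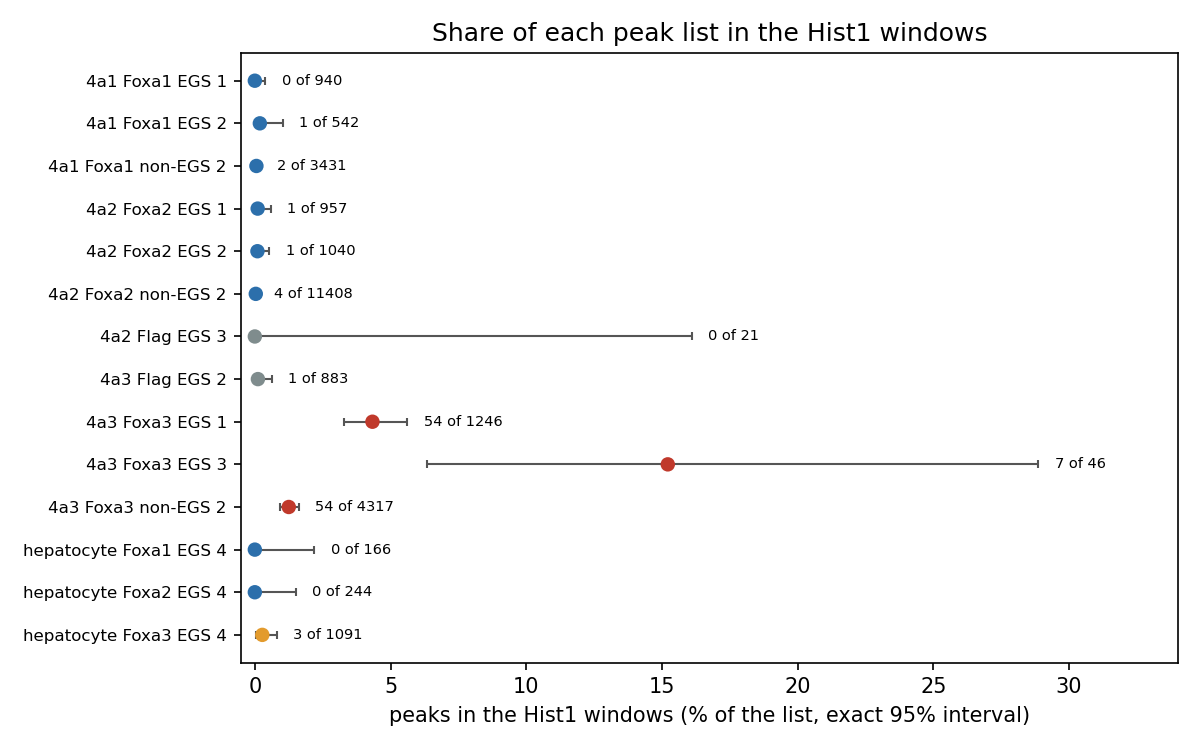
Percentage of each peak list that lies in the Hist1 windows, 1 point per library with its exact 95% interval, and the peak counts beside it. Red marks Foxa3 in iHep line 4a3, blue Foxa1 and Foxa2, grey Flag and orange Foxa3 in hepatocytes. The 3 red points lie at 1.25%, 4.33% and 15.2%, and no other point exceeds 0.275%.

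As background, bins of 400 kb over the genome were compared in the same way. A higher share in every Foxa3 list than in each Foxa1 and Foxa2 list was found in 12 of 4314 bins with an iHep Foxa peak (0.278%). Against all 11 other lists it was found in 4 of 4387 bins (0.0912%). The rule used this contrast, so nothing is read from these shares.

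The windows span 0.0292% of 2637 Mb, the sum over chromosomes of the end of the last peak in any list, which stands for the genome here. The density of peaks in them, relative to the same list over the genome, was 148 times as high in Foxa3 EGS replicate 1, 42.8 times in Foxa3 non-EGS and 521 times in Foxa3 EGS replicate 3. In the 6 Foxa1 and Foxa2 lists it was between 0 and 6.32 times. Of the Foxa3 peaks on chromosome 13, the windows held 54 of 97 (55.7%), 54 of 171 (31.6%) and 7 of 7.

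Among libraries that share a run code in their titles, Foxa3 had the highest count in each run that held it. In run R156 the windows held 54 peaks of Foxa3 EGS replicate 1 and 1 of the 883 peaks of the Flag list of line 4a3. In run R170 they held 7 of 46 Foxa3 peaks (EGS replicate 3), 1 of 542 Foxa1 peaks and 0 of 21 Flag peaks of line 4a2, where a count of 0 allows up to 14.3%. In run R176, which holds the hepatocytes, they held 3 of 1091 Foxa3 peaks, 0 of 166 Foxa1 peaks and 0 of 244 Foxa2 peaks. No run code holds Foxa2 and Foxa3 libraries of iHep cells together.

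Overlapping peaks of the 14 lists merged into 68 regions, 29 in the first window and 39 in the second. Of these, 65 held a Foxa3 peak of iHep cells, and 61 held no peak of any other list. Counted over the 9 iHep Foxa lists, 63 of the 68 regions belonged to line 4a3 alone, against 4070 of 16880 over the genome (24.1%), a share that the choice of windows raises by construction. A further 1 region was shared by all 3 lines, 1 by lines 4a1 and 4a2, 1 by lines 4a2 and 4a3, and 2 were of line 4a2 alone.

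**Figure D2:**
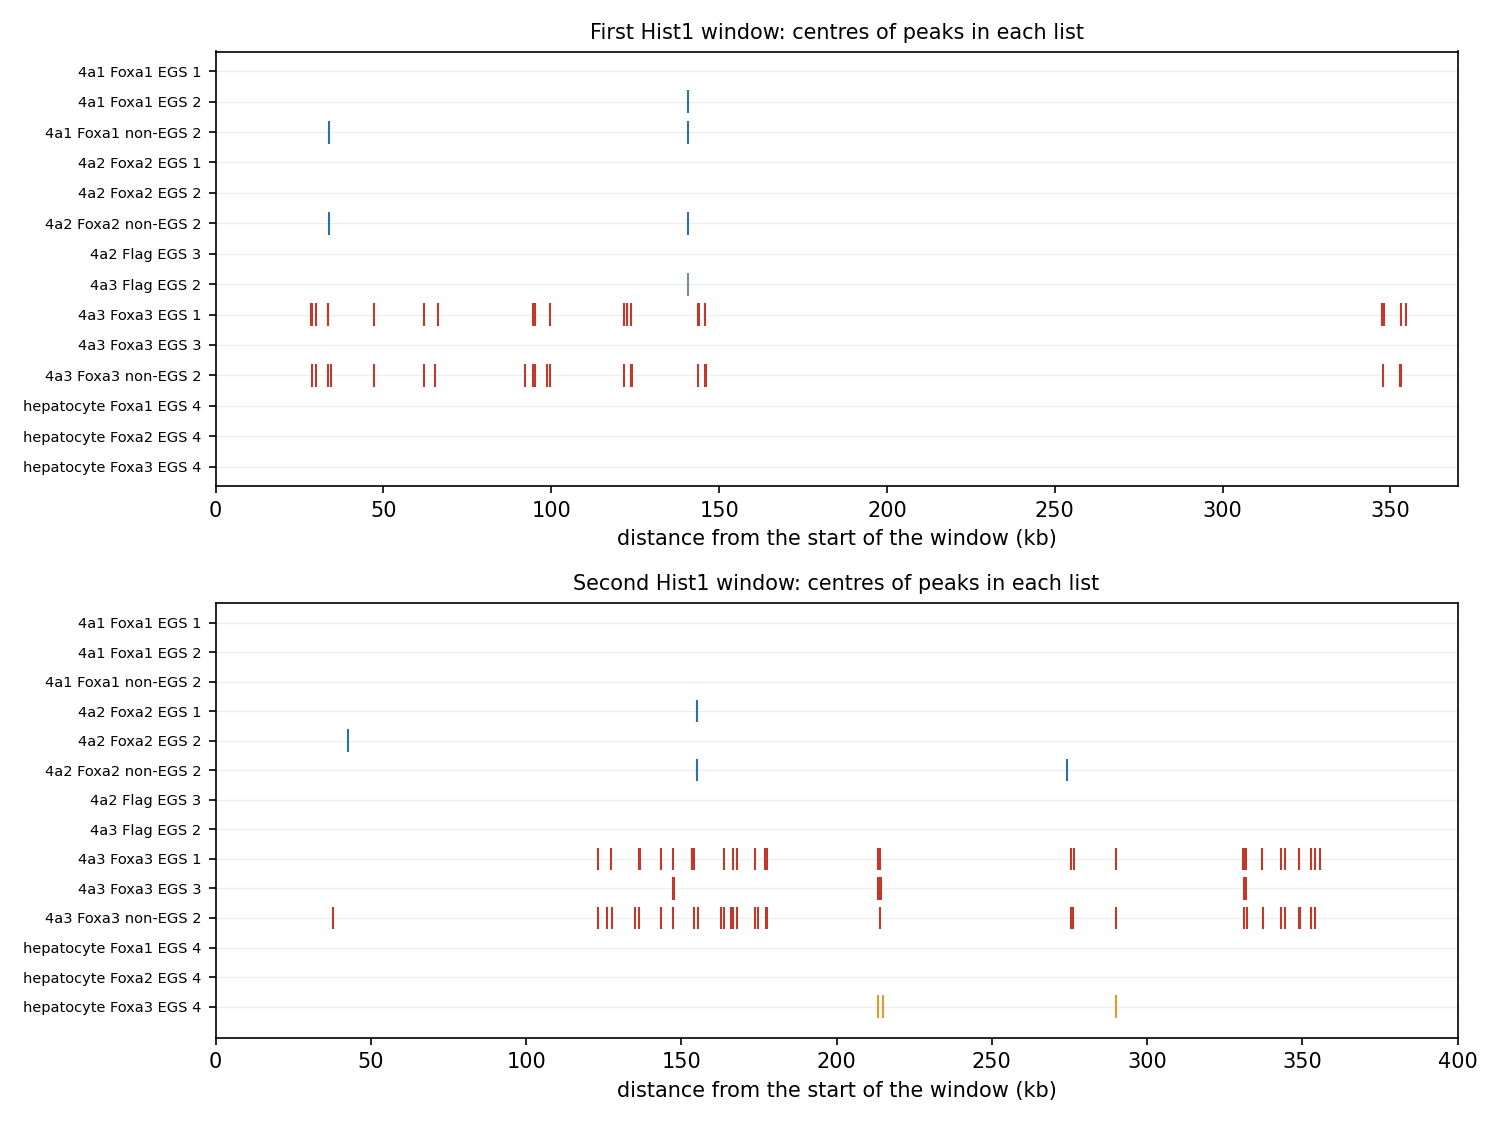
Centres of peaks in each list, as distance from the start of each window in kb, 1 row per list. In both windows the rows of Foxa3 EGS replicate 1 and Foxa3 non-EGS carry groups of peaks at matching places, with 54 peaks each, and Foxa3 EGS replicate 3 adds 7 peaks at 3 places of the second window.

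Many Foxa3 regions of the windows were shared between libraries, and 30 of 65 were called in 1 Foxa3 list. Of the 54 peaks of EGS replicate 1 in the windows, 42 overlapped a non-EGS peak (77.8%, 64.4 to 88.0), where the whole list gave 51.0%. In the other direction, 36 of the 54 non-EGS peaks overlapped one of EGS replicate 1 (66.7%, 52.5 to 78.9), where the whole list gave 12.6%. All 7 peaks of EGS replicate 3 overlapped both other lists, where its whole list of 46 gave 84.8% with EGS replicate 1 and 93.5% with the non-EGS list. At least 2 Foxa3 lists met in 35 of the 65 Foxa3 regions, against 531 of 4915 Foxa3 regions in all (10.8%). All 3 lists met in 3 of the 65, among them the region at Hist1h1c, against 23 of 4915 (0.468%). The windows were chosen with that region known as shared by the 3 lists, so the overlaps given here are a description only. The count of 35 rests on EGS replicate 1 and the non-EGS list together: it was 3 without the former and 4 without the latter.

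Where peaks of EGS replicate 1 and the non-EGS list overlapped in the windows, in 43 pairs, the non-EGS peak was the wider in 37. The median ratio of widths was 1.94, and 21 of the narrower EGS peaks lay wholly inside their partner. The centres of paired peaks were a median of 90.5 bp apart. Overlapping pairs elsewhere in the genome were not compared, so these values are not shown to be particular to the windows. In the Foxa3 lists as a whole the median width was 149 bp for EGS replicate 1, 147.5 bp for EGS replicate 3 and 180 bp without EGS, and in the windows it was 244 bp for EGS replicate 3 and 277.5 bp without EGS. The median in the windows exceeded that of the whole list by 15.0 bp for EGS replicate 1, by 96.5 bp for EGS replicate 3 and by 97.5 bp without EGS. Peaks of EGS replicate 1 in the windows were 103 to 874 bp wide.

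The region at Hist1h1c (23830434 to 23832145, 1712 bp) was found in all 3 Foxa3 lists and in no other list. The non-EGS list covered it with 1 peak of 1712 bp, rank 42 of 4317 by score, where tied peaks share the best rank. In EGS replicate 1, 93.7% of all peaks have a score that another peak has too. EGS replicate 1 placed 3 peaks in it, and the widest, of 554 bp from 23830724 to 23831277, ranked 22 of 1246, the best rank of that list in the windows. Its other peaks, of 161 and 127 bp, ranked 138 and 1175. EGS replicate 3 placed 2 peaks there, 1 of 606 bp (23830908 to 23831513) at rank 3 of 46 and 1 of 365 bp at rank 13. The non-EGS list thus had 1 broad peak where each EGS list had several narrower ones. These are different replicates of unknown depth, and the signal under the peaks was not read. The best-ranked peaks of the 2 EGS libraries in this region overlapped each other from 23830908 to 23831277.

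**Figure D3:**
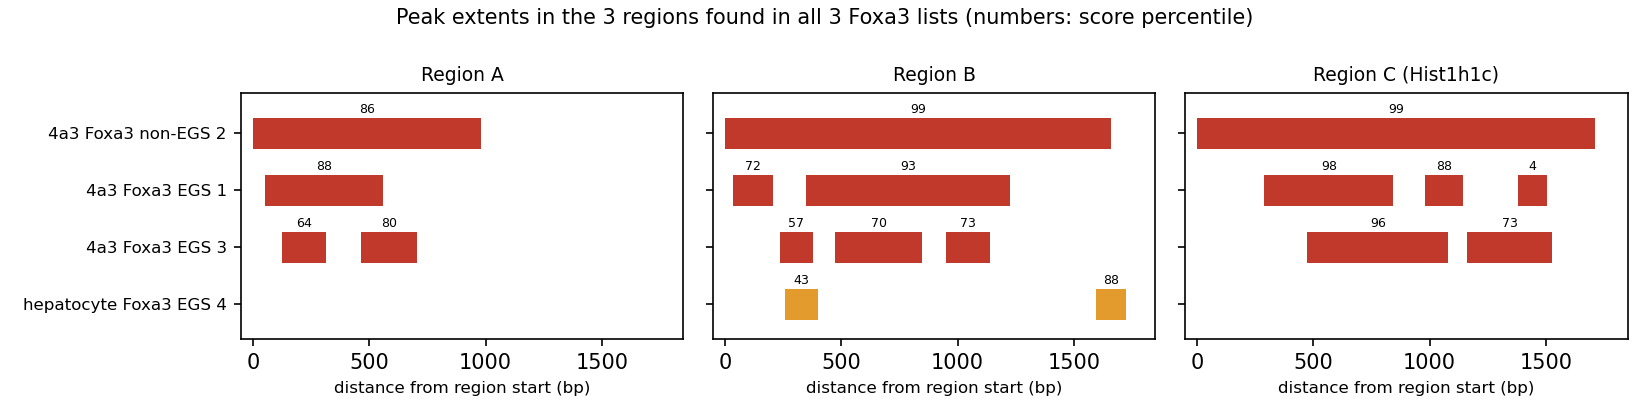
Extents of the peaks in the 3 regions found in all 3 Foxa3 lists of iHep cells, as distance in bp from the start of each region, with the score percentile above each bar (100 is the highest score of the list). Region A starts at 23646960, region B at 23713161 and region C, at Hist1h1c, at 23830434. Single non-EGS peaks of 980, 1658 and 1712 bp span stretches where the EGS lists hold up to 3 narrower peaks each, and region B also holds 2 hepatocyte peaks.

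A second region of this kind ran from 23713161 to 23714883. The non-EGS list had a peak of 1658 bp there at rank 30 of 4317. EGS replicate 1 had peaks of 173 and 874 bp, the latter at rank 85 of 1246, and EGS replicate 3 had 3 peaks at ranks 13, 15 and 21 of 46. It was the one Foxa3 region of the windows found in all 3 iHep Foxa3 lists and in the hepatocyte Foxa3 list. The third ran from 23646960 to 23647939, with a non-EGS peak of 980 bp at rank 626, a peak of 510 bp at rank 138 in EGS replicate 1, and peaks of 187 and 244 bp at ranks 16 and 10 in EGS replicate 3. No peak of Foxa1, Foxa2 or Flag overlapped any of these 3 regions.

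The mm9 places of Hist1h1a, Hist1h1b, Hist1h1d and Hist1h1e were not analysed here, since the gene table is of GRCm38.p6, and no peak was assigned to them. The order of genes in that table can be set beside the order of peaks. In the table, 24 of the 56 histone genes with a Hist1 name on chromosome 13, among them Hist1h1b, come before a run of 75 Vmn1r entries (vomeronasal receptor genes and pseudogenes), and 32, among them the other 4 members, come after it. The table also holds 77 transfer RNA entries between the first and the last of these histone genes, so histone genes are not the only genes among which the peaks could lie. The rule itself set 2 windows, so 2 blocks of Foxa3 peaks are no finding. None of the 3 Foxa3 lists had a peak between 22134727 and 23537626, a stretch of 1403 kb. They also had none for 1500 kb before the first window and for 473 kb after the second. Nothing is therefore read from the stretch between the windows. In the space between the windows, 1 Foxa1 non-EGS peak (22281227 to 22281696) and 1 Foxa2 non-EGS peak (23350580 to 23350943) were found, at score percentiles of 5.67 and 13.4.

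The order after Hist1h1c can be compared in more detail. The table lists Hist1h3c, the pseudogene H2ac5-ps, Hist1h2bb, Hist1h2ab, Hist1h3b, Hist1h4b, Hist1h4a and Hist1h3a, genes of core histones apart from the pseudogene, then Hist1h1a and then Trim38. On mm9, 9 merged regions followed the one at Hist1h1c within 23.6 kb, all of Foxa3 lists alone and 6 of them in 2 lists. After the last of these, which ended at 23855776, no list had a further peak up to the end of the window, 44.2 kb away. Before Hist1h1c the table lists Hfe and Gm11338, and before those Hist1h4c. On mm9 the 40.1 kb before the Hist1h1c region held no peak of any list, and the region before that space (23789639 to 23790380) held Foxa3 peaks of 3 lists. Which of these regions lies at which gene was not tested.

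At spacings above 10 kb, a distance chosen after the positions were seen, the 68 regions fell into 13 groups. The group that begins with the Hist1h1c region held 10 regions over 25.3 kb, with 10 peaks of EGS replicate 1, 9 of the non-EGS list and 2 of EGS replicate 3. The largest, from 23622996 to 23677820, held 22 regions over 54.8 kb, with 16, 18 and 2 peaks in the same order. Within the windows, the median space between neighbouring peaks was 2985 bp in EGS replicate 1 and 2209.5 bp in the non-EGS list, against 241042.5 and 44605 bp in the whole lists.

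The first window held 23 peaks of EGS replicate 1 and 22 of the non-EGS list in 7 groups, and none of EGS replicate 3. Its best non-EGS peak spanned 845 bp from 21923289 to 21924133, rank 28 of 4317 and the best of that list in either window, while EGS replicate 1 had peaks of 161 and 244 bp there at percentiles of 24.2 and 44.8 only. The region from 22132913 to 22133475 ranked 76 in the non-EGS list and 238 of 1246 in EGS replicate 1. Other regions of both lists in this window were 21903678 to 21904042, 21841945 to 21842465, 21827011 to 21827396, 21809610 to 21810070 and 21874703 to 21875257, with mean percentiles between 69.4 and 83.2.

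In the second window, both lists also met at 23622996 to 23623575 (rank 78 of 4317 and 189 of 1246) and at 23673322 to 23674048 (rank 94 and 305). The same pair of lists met at 23776095 to 23776425, 23853799 to 23854196, 23844270 to 23844752, 23653839 to 23654325 and 23848897 to 23849173, with mean percentiles from 79.6 down to 60.8. Lower still were 23627374 to 23627716, 23852726 to 23853014, 23677370 to 23677820 and 23663417 to 23663950, at 54.6 to 58.7. Over both windows, 12 more regions in at least 2 lists had mean percentiles of 12.2 to 52.4, and 31 regions were found in 1 list. Of the latter, 12 were of EGS replicate 1 (103 to 211 bp wide) and 17 of the non-EGS list (129 to 343 bp).

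Most Hist1 peaks were of middling rank, with a few near the top of the lists. The median score percentile in the windows was 63.0 in EGS replicate 1, 60.9 in the non-EGS list and 72.8 in EGS replicate 3. The range was wide, from 4.09 to 98.3 in the first of these and from 0.255 to 99.4 in the second. The top 10% of scores held 4 of 54 peaks of EGS replicate 1, 13 of 54 of the non-EGS list and 1 of 7 of EGS replicate 3, where the whole lists gave 10.4%, 10.2% and 10.9% with ties. In this share the non-EGS list lay above its whole list and EGS replicate 1 below it, while EGS replicate 3 had 1 such peak. Peaks of at least 500 bp were 11 of the 54 in the non-EGS list (20.4%), where the whole list gave 7.32%, and 8 of the 11 were in the top 10%, as were 168 of the 316 such peaks of the whole list. They were 3 of 54 in EGS replicate 1 and 1 of 7 in EGS replicate 3, where the whole lists gave 3.13% and 4.35%.

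**Figure D4:**
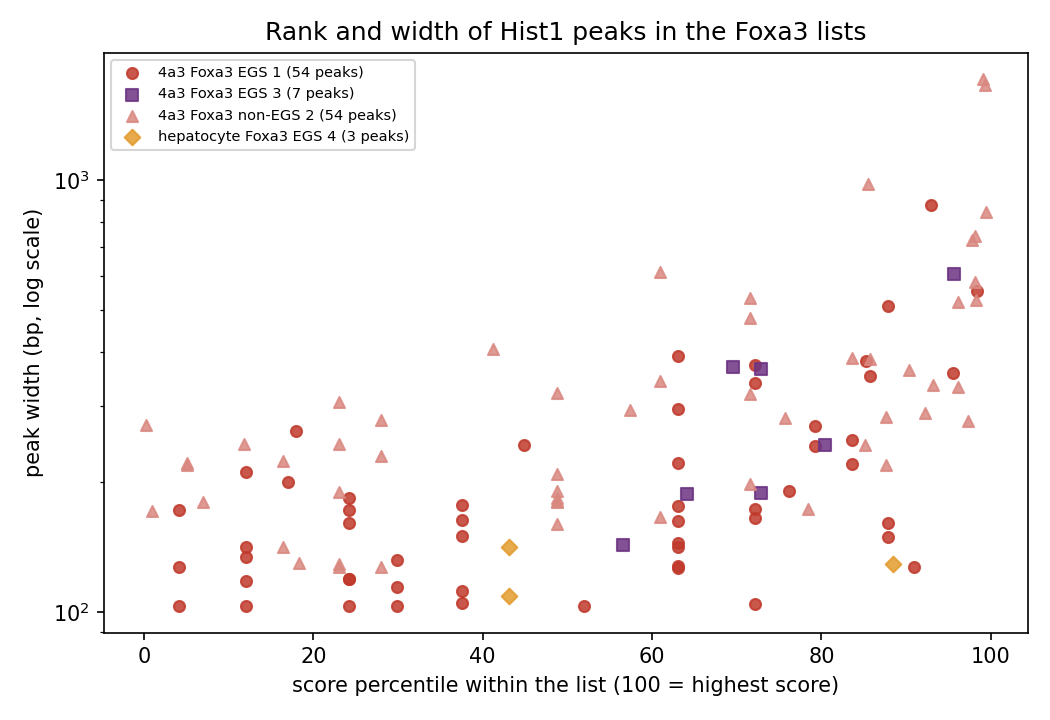
Width in bp (log axis) of each Foxa3 peak in the windows against its score percentile within its own list (100 is the highest), 1 point per peak. The widest points, non-EGS peaks of 1712 and 1658 bp, lie at percentiles of 99.1 and 99.3, and the 3 hepatocyte peaks are 109 to 141 bp wide.

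Among genome bins of 400 kb, that from 23600001 to 24000000 held the most peaks of EGS replicate 1, with 31. In this list, 14.7% of the 666 bins with a peak held at least 3. The next were a bin of chromosome 19 (5600001 to 6000000) with 30 and a bin of chromosome 3 (96000001 to 96400000) with 27. The Hist1 bin came second of 15 in EGS replicate 3, with 7 peaks against 17 in the chromosome 19 bin, in a list where 26.7% of bins held at least 3. In the non-EGS list it held 31 peaks, after the chromosome 19 bin and a bin of chromosome 6 (52000001 to 52400000) with 35 each, and 34.3% of 1562 bins held at least 3. The chromosome 6 bin held no peak of either EGS list, so dense Foxa3 bins did not all recur across libraries. The Hist1 bin held 3 peaks of the 6 Foxa1 and Foxa2 lists, the chromosome 19 bin 2 and the chromosome 3 bin 9.

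Hepatocytes showed little of this pattern. The hepatocyte Foxa3 list, of similar length to that of Foxa3 EGS replicate 1, had 3 of 1091 peaks in the windows (0.275%, 0.0567 to 0.801), and a density 9.42 times that of the list as a whole. All 3 lay in the second window and overlapped a Foxa3 peak of line 4a3, where 25.8% of the whole hepatocyte Foxa3 list did. The first, 141 bp from 23713419 to 23713559, and the second, 129 bp from 23714755 to 23714883, lay in the region found in all 3 iHep Foxa3 lists, at percentiles of 43.1 and 88.5. The third, 109 bp from 23789944 to 23790052, lay where the non-EGS list had a peak of 742 bp at rank 78 and EGS replicate 1 a peak of 382 bp at rank 181. No hepatocyte peak lay in the Hist1h1c region or in the 25.3 kb group that follows from it. For comparison, the same hepatocyte list, in which 28.3% of the 400 kb bins with a peak held at least 3, had 3 peaks in the Hist1 bin, 13 peaks in the chromosome 19 bin and 18 in the chromosome 3 bin that also held many Foxa3 peaks of iHep cells. The hepatocyte Foxa1 and Foxa2 lists had 0 of 166 and 0 of 244 peaks in the windows, where a count of 0 allows shares of up to 1.81% and 1.23%. With 1 library per antibody these differences have no replicate check.

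Of the 13 peaks outside the Foxa3 lists of iHep cells, 7 overlapped an iHep Foxa3 peak, among them the 3 hepatocyte peaks, and 6 did not. One region, 21920361 to 21920917, held Foxa1 peaks of EGS replicate 2 and the non-EGS list, the Foxa2 non-EGS peak and the Flag peak of line 4a3, and no Foxa3 peak. The nearest Foxa3 region, of 845 bp, began at 21923289. The Flag peak there, 294 bp at rank 198 of 883, was the 1 Flag peak of the windows. None of the 54 peaks of Foxa3 EGS replicate 1, from the same line and with the same title code, overlapped a Flag peak, where 174 of the 1246 peaks of that whole list did.

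A second region, 21813334 to 21814013, chained Foxa3 peaks to a Foxa1 non-EGS peak at percentile 15.8 and a Foxa2 non-EGS peak at percentile 2.63. Another region, 23654954 to 23655360, held Foxa2 peaks of EGS replicate 1 (210 bp, percentile 73.3) and of the non-EGS list (382 bp, percentile 23.3) with a Foxa3 non-EGS peak of 127 bp. Foxa2 alone gave the peaks at 23542524 to 23542659 and 23774032 to 23774416. In all, 1 of 54 peaks of Foxa3 EGS replicate 1 and 2 of 54 Foxa3 non-EGS peaks overlapped a Foxa1 or Foxa2 peak of iHep cells, where the whole lists gave 23.8% and 15.6%. For Foxa3 EGS replicate 3 it was 0 of 7, where the whole list gave 2.17%. The windows were chosen by a Foxa3 site without Foxa1 or Foxa2 peaks, so nothing is read from these overlaps.

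At the edges of the windows, the first Foxa3 peak inside was 28.3 kb from the start of the first window (119 bp, percentile 24.2) and the last 15.3 kb from its end (211 bp, rank 1046 of 1246). In the second window the outermost Foxa3 peaks lay 37.6 kb (180 bp, percentile 48.8) and 44.2 kb (141 bp, percentile 63.0) from the edges. Outside, the nearest Foxa3 peaks were 1500 kb before the first window (109 bp, percentile 37.6) and 473 kb after the second (128 bp, percentile 60.9). The genes of the cluster include near-identical copies, and how reads that match several copies were placed is not given in the sources used here, so its part in these peaks was not tested.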

How the data were processed

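Peak lists of 14 libraries were used. The 10 input libraries of the 24 samples were not analysed here. The submitters' processing notes name mm9 as the build, and BWA (0.6.2), MACS2 (2.1.0) and bedtools (2.16.2) as tools. The settings, peak threshold and control use behind them are not stated in the labels or files used here. A deposited list holds positions and the authors' score per peak, whose scale the files do not state. The Flag 4a3 scores start at 50.0, unlike those of other lists, so scores only ranked peaks within a list. Percentiles use average ranks for ties, and printed ranks the best. Lists were treated as called per library.

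Starts were written 1-based. Peaks and regions were counted in Python (3.11.15) using pandas (2.3.3), numpy (2.4.6) and, for exact intervals, scipy (1.17.1). The counting code was tested on simulated data. An overlap of at least 1 bp counted as shared and merged regions are unions of overlapping peaks. Named regions are the first 25 of those in at least 2 lists, by number of lists and then mean percentile of the best peak per list. Promoters and gene order came from RefSeq tables on GRCm38.p6. The windows, members and lists were chosen with earlier results of these data known, so nothing was tested. Replicates are numbered in the titles, which do not say that they are separate inductions, so SDs may be technical. Alternatives were the upper 50% of scores, the top 300 peaks, merging within 1 kb, wider windows, a 50% overlap, EGS libraries only, ranking by width and leaving out each library.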

Additional observations from a re-analysis of the deposited data

How the results depend on the processing

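Widening the windows by 50 kb on each side added no peak. When only peaks in the upper 50% of scores were kept, the windows held 71 peaks in place of 128, line 4a3 alone had 40 regions in place of 63, 15 regions in place of 35 were in at least 2 Foxa3 lists, and 1 hepatocyte Foxa3 peak was left, which overlapped line 4a3. Merging peaks of a list within 1 kb left 84 peaks and 36 regions of line 4a3 alone, and raised the median width, averaged over the 3 Foxa3 lists, from 228.5 to 673 bp. Ranking by width gave a mean median percentile of 72.5, against 65.6 by score. Leaving out 1 library at a time, the difference in share between Foxa3 and the other Foxa lists was 2.71 to 9.70 percentage points (lowest without Foxa3 EGS replicate 3), line 4a3 alone had 52 to 63 regions, 3 to 35 regions were in at least 2 Foxa3 lists, and 2 to 3 hepatocyte peaks were found in line 4a3. The mean median percentile was 61.9 to 67.9 and the mean median width 204 to 261 bp. The difference in share was also 12.9 with the top-scoring 50%, 7.68 with the top 300 peaks, 4.93 after merging within 1 kb and 9.68 with EGS libraries. It was always higher for Foxa3, a direction that the choice of windows favoured. Of 52 alternatives over 7 results, 42 stayed within the spread or 1.5 times the count, 10 moved further and 0 reversed. Only the difference in share could be counted as reversed. The spread used for it was the SD of the 3 Foxa3 shares (7.34), above the main difference of 6.85 points. That its 14 alternatives stayed within this spread therefore says little. Apart from fewer peaks or libraries entering, the cause of the moves was not tested. No paired analysis was possible because the results come from no test, so there is no fit to which a block could be added.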
